A study of Homo sapiens with 12 samples.

Results

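The genes described here are 9 genes of plasminogen activation and of the serpins grouped with it, namely PLAU, PLAT, PLAUR, ANXA2, S100A10, SERPINE2, SERPINB2, SERPINB7, and SERPINF1. They were taken from the deposited table of raw counts by gene symbol, 1 row each, 9 of 60649 rows in all. RNA was sequenced from 12 libraries of 2 established uterine leiomyosarcoma (uLMS) cell lines. SK-UT-1B came from a primary tumor, and SK-LMS-1 came from a metastasis. For SK-UT-1B there were 2 DMSO libraries (4-1 and 4-2) and 2 from cells given MK-0752, gemcitabine, and docetaxel together (3-1 and 3-3), called the combination here. SK-LMS-1 had 2 DMSO libraries of set 2 (2-1 and 2-3), 2 DMSO libraries of set 4 (4-1 and 4-2), 2 after MK-0752 alone (2-2 and 2-3), and 2 after the combination (4-1 and 4-2). The sets are the first number of the library names. Cells were exposed for 72 h, MK-0752 alone at its own IC30 and the combination at the IC30 of the mixture. In the mixture, each drug was at a lower dose than its IC30 alone, so MK-0752 was not at the same dose in both treatments of SK-LMS-1. Every group of SK-LMS-1 or SK-UT-1B came from the same single line, so the lines stand for 1 tumor each. MK-0752 inhibits gamma secretase, the protease that releases the active fragment of Notch receptors, gemcitabine is a nucleoside analog, and docetaxel stabilizes microtubules. None of the labels say that the libraries of a group came from separate cultures, so p-values measure only the spread between these libraries.

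Plasminogen is a circulating proenzyme that is cut to plasmin, a serine protease that dissolves fibrin, degrades matrix proteins, and activates other matrix proteases. Urokinase (PLAU) and tissue plasminogen activator (PLAT) make this cut, urokinase mostly while bound to its receptor PLAUR on the cell surface. Annexin A2 (ANXA2) and its small partner p11 (S100A10) form a surface complex that binds plasminogen and tissue plasminogen activator. Serpins trap proteases in a stable complex, and the system is studied in tumors for its part in invasion.

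Total counts lay between 25250057 and 40709885 per library. Levels are given as CPM, counts scaled to a common library size with TMM factors. Levels of different genes are compared as TPM, which also divides by the length of the canonical transcript. A gene counted as differentially expressed when its absolute log2FC was at least 1 and the p of edgeR's quasi-likelihood test, after Benjamini-Hochberg adjustment over all 21114 tested genes, was under 0.05. All 9 genes passed the filter on low counts. SERPINB2 and SERPINB7 passed only through SK-LMS-1, as did other genes named below with 0 counts in every SK-UT-1B library. For such genes a difference between the lines could only be higher in SK-LMS-1. In SK-LMS-1, HES1, a direct Notch target, was at 19.1 to 34.8 CPM after DMSO, at 3.14 and 3.80 CPM after MK-0752, and at 3.82 and 1.35 CPM after the combination. The 9 smooth muscle markers summed to 538 to 621 CPM in SK-LMS-1, where DES was at or under 3 counts in every library. They summed to 85.0 to 124 CPM in SK-UT-1B, where MYH11 and MYOCD were at or under 3 counts. Most of the SK-LMS-1 sum was CALD1 (307 to 399 CPM) and SMTN (123 to 206 CPM). MYH11 had at most 5 counts and MYOCD at most 36 in any SK-LMS-1 library. DES went the other way, with 50 to 282 counts in SK-UT-1B. The 6 epithelial markers summed to 169 to 266 CPM in SK-LMS-1 and to 0.292 to 1.14 CPM in SK-UT-1B, with CDH1 at or under 3 counts in both. Most of the SK-LMS-1 sum was KRT8 (87.0 to 109 CPM) and KRT18 (64.3 to 144 CPM), and EPCAM had at most 37 counts there. Leukocyte markers summed to at most 4.64 CPM and endothelial markers to at most 9.40 CPM in any library.

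The first question was how the untreated lines differ. Of the 9 genes, 8 were higher in SK-LMS-1 and 1, S100A10, was higher in SK-UT-1B when both had received DMSO, with no overlap between the libraries of the lines. Among all tested genes, 17% were higher and 14.1% were lower by the same rule, and the libraries did not overlap in the higher direction for 25.3% and in the lower direction for 26.6%. The median log2FC of the 9 genes was 4.88, and that of all tested genes was 0. The 9 genes were chosen with earlier results of these data known. Shares and medians set beside those of all tested genes, here and below, are therefore descriptions and not tests. After the combination, 8 of the 9 genes were again higher in SK-LMS-1 and 0 were lower, against 15.6% and 9.88% of all tested genes. In a bulk sample, fewer cells that express a gene and less RNA per cell cannot be told apart.

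**Figure D1:**
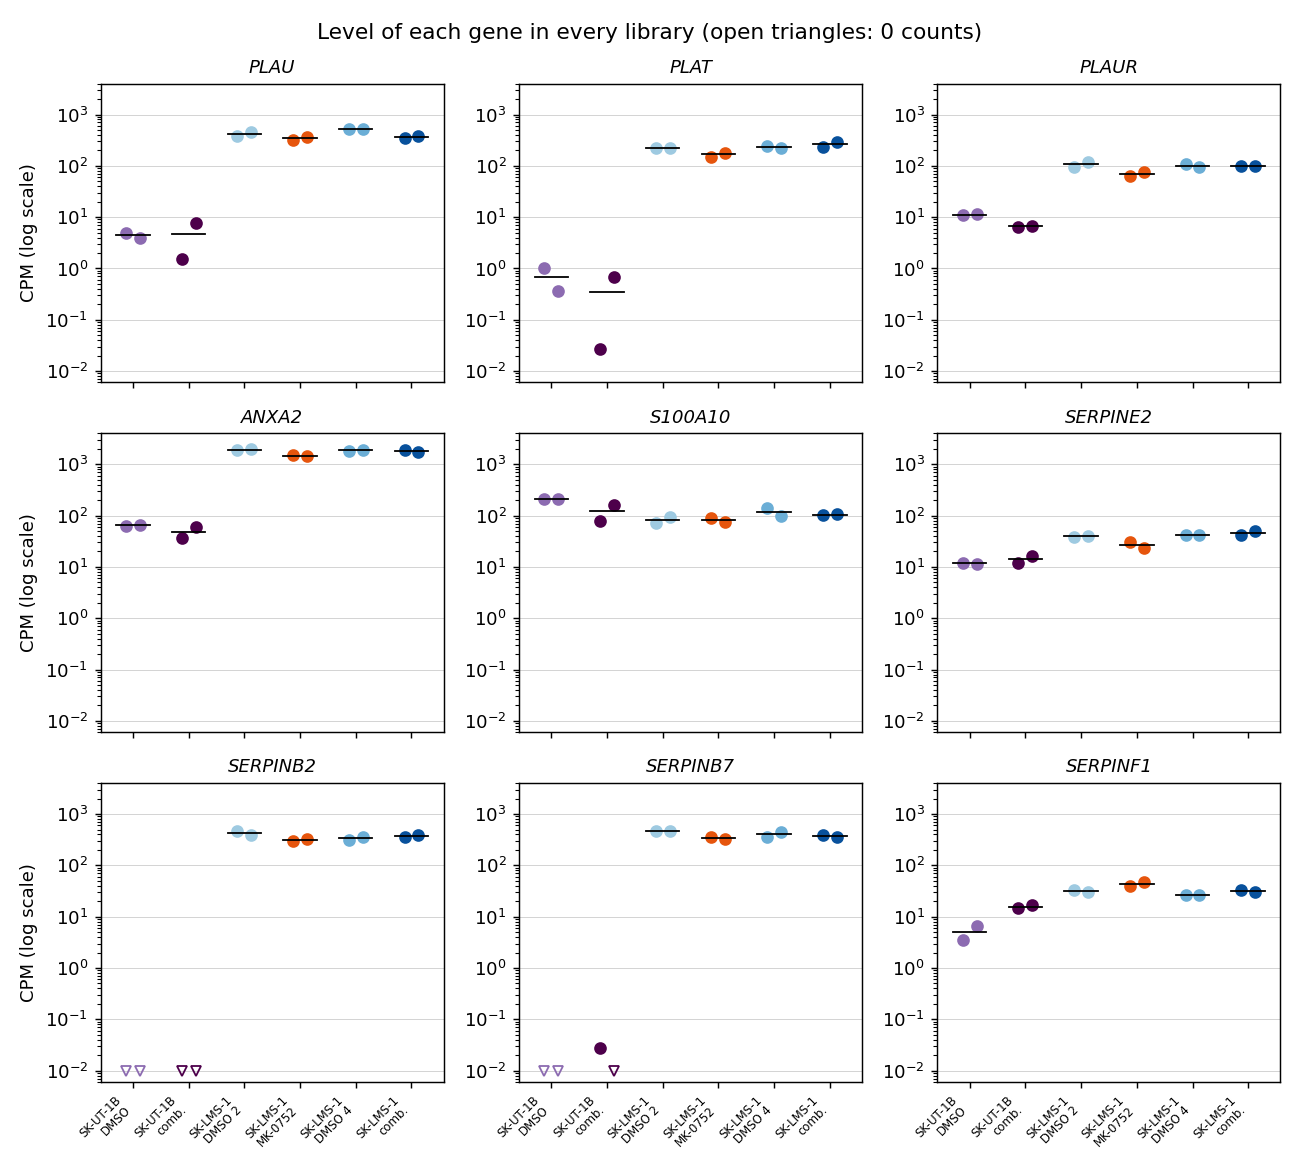
Level of each of the 9 genes in every library, in CPM on a log axis. Points are libraries, lines are the means of the groups of 2, open triangles are libraries with 0 counts, and "comb." is the combination. In 8 genes the SK-LMS-1 libraries all lie above the SK-UT-1B libraries, and SERPINB2 has 0 counts in all 4 SK-UT-1B libraries.

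Both activators were far higher in SK-LMS-1. PLAU (ENSG00000122861.16, hg38 chr10:73909177-73917496, plus strand, 11 exons in the canonical transcript) encodes urokinase. It was at 386 and 457 CPM in DMSO set 2 and at 527 and 515 CPM in DMSO set 4 of SK-LMS-1. The SK-UT-1B DMSO libraries held 4.95 and 3.95 CPM. The log2FC was 6.72 (SE 0.69, edgeR adjusted p = 0.000205), a 106-fold difference. PLAU overlaps C10orf55 on the other strand, which had 69 to 262 counts in SK-LMS-1 and 0 in SK-UT-1B. Since the strand setting of the counts is not stated, reads of the pair cannot be fully told apart, although PLAU had 9431 to 19881 counts in SK-LMS-1.

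PLAT (ENSG00000104368.19, hg38 chr8:42174718-42207709, minus strand, 14 exons) encodes tissue plasminogen activator. Its SK-LMS-1 DMSO libraries lay between 221 and 242 CPM, a narrow range. In SK-UT-1B it was near the limit of detection, with 29 and 14 counts, or 1.00 and 0.371 CPM, after DMSO. PLAT was 344-fold higher in SK-LMS-1 (log2FC 8.42, SE 0.64, edgeR adjusted p = 1.32e-05). On so few counts the size depended on the library, with a log2FC of 9.19 without the SK-UT-1B DMSO library 4-1 and 7.82 without 4-2. Per transcript length, SK-LMS-1 held more PLAU than PLAT in every library, with a TPM ratio of 1.75 to 3.05.

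PLAUR (ENSG00000011422.12, hg38 chr19:43646095-43670547, minus strand, 7 exons) encodes the urokinase receptor, which is tethered to the membrane by a lipid anchor. It was at 95.8, 117, 109, and 93.7 CPM in SK-LMS-1 cells given DMSO and at 11.1 and 11.4 CPM in SK-UT-1B cells given DMSO. The difference was 9.25-fold (log2FC 3.21, SE 0.20, edgeR adjusted p = 6.38e-11). Ligand and receptor therefore stood in a different order in the lines. The TPM ratio of PLAU to PLAUR was 2.07 to 3.21 in the 8 SK-LMS-1 libraries and 0.136 to 0.669 in the 4 SK-UT-1B libraries. These ratios are descriptions of RNA levels, and no protein was measured.

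ANXA2 and S100A10, whose proteins form 1 complex, differed in opposite directions. ANXA2 (ENSG00000182718.18, hg38 chr15:60347134-60402883, minus strand, 13 exons) was at 1870, 1990, 1847, and 1927 CPM in the 4 DMSO libraries of SK-LMS-1 and at 63.1 and 66.9 CPM in those of SK-UT-1B. It was 29.4-fold higher in SK-LMS-1 (log2FC 4.88, SE 0.19, edgeR adjusted p = 4.82e-14). S100A10 (ENSG00000197747.9, hg38 chr1:151982915-151993859, minus strand, 3 exons) was at 73.3, 92.1, 139, and 98.2 CPM in SK-LMS-1 and at 215 and 212 CPM in SK-UT-1B after DMSO. It was 2.15-fold lower in SK-LMS-1 (log2FC -1.11, SE 0.23, edgeR adjusted p = 0.00155). Without the SK-LMS-1 DMSO library 4-2, its log2FC was -0.99, under the fold required. The TPM ratio of ANXA2 to S100A10 was 5.72 to 11 in SK-LMS-1 and 0.127 to 0.199 in SK-UT-1B. ANXA2 has processed copies elsewhere in the genome, and reads that fit a copy equally well may be lost or split. Of the 3 copies looked at, ANXA2P2 was tested, and it had 116 to 330 counts in SK-LMS-1 and 4 to 23 in SK-UT-1B.

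**Figure D2:**
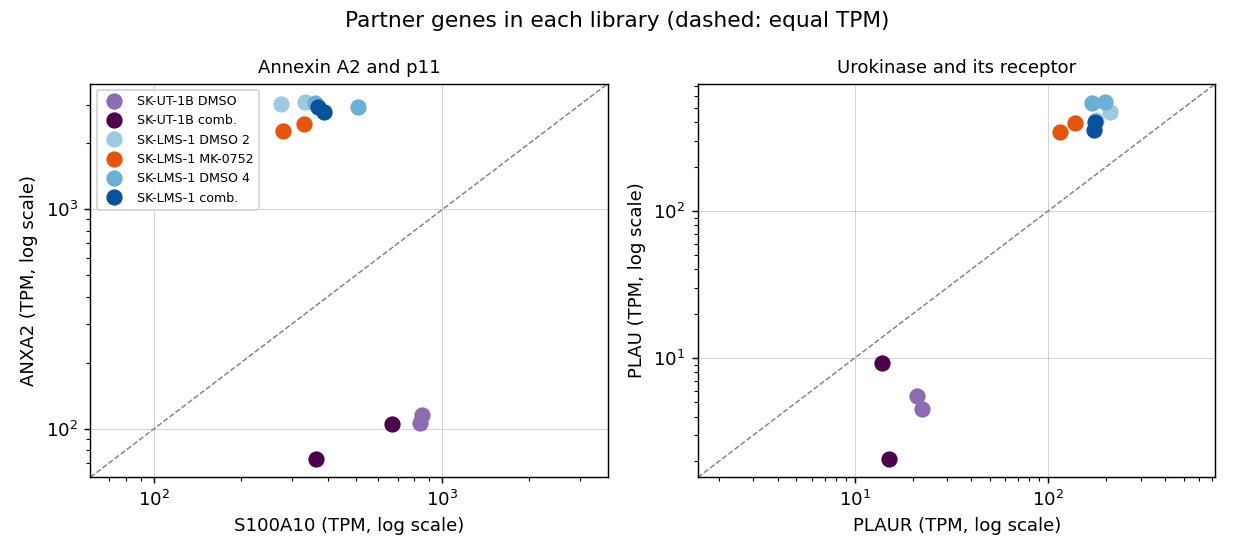
TPM of ANXA2 against S100A10 (left) and of PLAU against PLAUR (right) in each library, on log axes, with a dashed line at equal TPM. The SK-LMS-1 libraries lie above the line and the SK-UT-1B libraries below it in both panels.

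The 250 bases before the RefSeq start (GRCh38.p14) were looked up for the members. A window was given for 7 of the 9 genes, with none for PLAT and SERPINF1. PLAU and SERPINE2 had 2 windows each and SERPINB7 had 3, of which the nearest to the canonical start was used, and that of SERPINE2 lay 646 bases from it. The 2 shown are those of SERPINB2, with 0 counts in SK-UT-1B, and of S100A10, the gene that was higher in SK-UT-1B. They lie at chr18:63887455-63887704 on the plus strand and at chr1:151993860-151994109 on the minus strand and overlap no annotated exon. Capitals mark matches, on either strand, to TGANTCA (bound by AP-1 factors), TATAAA (the TATA box), and GGGCGG (the GC box).
SERPINB2: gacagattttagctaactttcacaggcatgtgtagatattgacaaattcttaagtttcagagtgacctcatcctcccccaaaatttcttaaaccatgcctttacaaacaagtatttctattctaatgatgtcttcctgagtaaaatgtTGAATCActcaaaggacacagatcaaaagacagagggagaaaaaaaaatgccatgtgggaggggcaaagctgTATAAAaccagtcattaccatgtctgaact
S100A10: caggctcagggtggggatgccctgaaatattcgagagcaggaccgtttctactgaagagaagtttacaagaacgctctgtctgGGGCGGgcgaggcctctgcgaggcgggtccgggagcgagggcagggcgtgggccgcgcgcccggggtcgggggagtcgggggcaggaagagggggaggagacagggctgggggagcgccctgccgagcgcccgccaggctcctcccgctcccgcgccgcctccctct

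The AP-1 letters TGANTCA stood in 4 of the 7 windows (ANXA2, PLAUR, SERPINB2, and SERPINB7) and in 6.57% of the 35116 windows of the table. They were absent from the windows of PLAU, S100A10, and SERPINE2. TATAAA stood in ANXA2 and SERPINB2, against 10.7% of all windows. GGGCGG stood in ANXA2, PLAU, S100A10, and SERPINE2, against 42.6%. TGGGAA, the letters bound by the Notch partner CSL, stood in the window of SERPINB7, against 20.8% of all, and TGACGTCA, the cAMP response element, stood in 0 of 7, against 1.65%. The motifs do not overlap each other in the sequences shown. A match describes these letters only and is not a measured binding site. Whether any of them bears on the difference between the lines was not tested.

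The clade B serpins SERPINB2 and SERPINB7 showed the widest difference between the lines. SERPINB2 (ENSG00000197632.9, hg38 chr18:63871692-63903888, plus strand, 8 exons) encodes plasminogen activator inhibitor type 2, which inhibits urokinase and is held largely inside the cell. It had 7667 to 16609 counts in the SK-LMS-1 libraries and 0 in each of the 4 SK-UT-1B libraries. After DMSO, SERPINB2 was at 476, 386, 311, and 361 CPM in SK-LMS-1, at least 4181-fold higher than a floor of 3 counts per library in SK-UT-1B (edgeR adjusted p = 8.63e-16). After the combination, it was at least 3988-fold higher. An unnamed gene model, ENSG00000289724, overlaps SERPINB2 on the same strand. The floor and these bounds cover counting error only, since no use of molecular identifiers is stated and reads are then not independent molecules.

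SERPINB7 (ENSG00000166396.13, hg38 chr18:63752935-63805376, plus strand, 8 exons), also called megsin, lies near SERPINB2 in the serpin cluster of chromosome 18 and is known from kidney mesangial cells and skin. It was at 472, 464, 356, and 452 CPM in the 4 DMSO libraries of SK-LMS-1. In SK-UT-1B, it had 1 count in the combination library 3-1 and 0 in the other libraries. After DMSO, the level of SERPINB7 in SK-LMS-1 exceeded the floor of SK-UT-1B at least 4755-fold (edgeR adjusted p = 3.52e-16). After the combination, the ratio of the mean CPM was 27667, with an exact Poisson interval of 4966 to 1092781 from the single count.

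SERPINE2 (ENSG00000135919.14, hg38 chr2:223975045-224039318, minus strand, 9 exons) encodes protease nexin 1, a secreted inhibitor of thrombin, urokinase, and plasmin. Its level was 38.3 to 42.7 CPM in DMSO libraries of SK-LMS-1 and 11.9 and 11.6 CPM in those of SK-UT-1B. The log2FC was 1.79 (SE 0.24, edgeR adjusted p = 5.16e-06), the smallest among the 8 genes that were higher in SK-LMS-1. SERPINF1 (ENSG00000132386.11, hg38 chr17:1762029-1777565, plus strand, 8 exons) encodes pigment epithelium-derived factor, a serpin by fold that inhibits no protease and is known to limit vessel growth. It was at 26.7 to 33.1 CPM in DMSO libraries of SK-LMS-1 and at 3.53 and 6.68 CPM in those of SK-UT-1B. SERPINF1 was 5.68-fold higher in SK-LMS-1 (log2FC 2.51, SE 0.30, edgeR adjusted p = 8.49e-07).

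**Figure D3:**
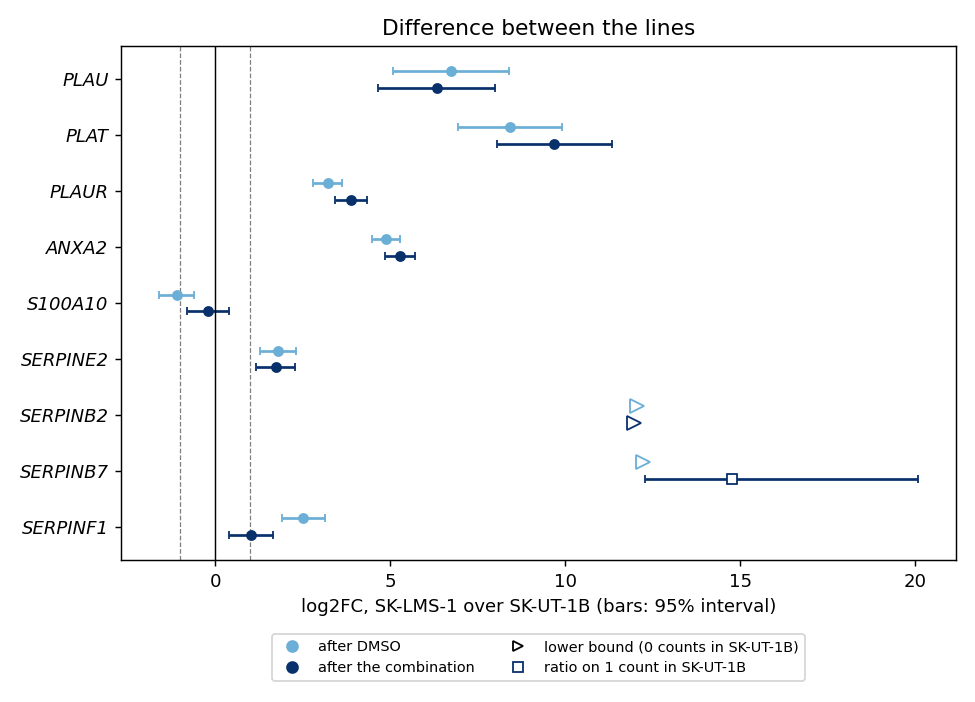
log2FC of each gene, SK-LMS-1 over SK-UT-1B, after DMSO and after the combination. Points are edgeR estimates with 95% intervals, open triangles are lower bounds for genes with 0 counts in SK-UT-1B, the open square is the SERPINB7 ratio on 1 count with its counting interval, and dashed lines mark the fold required. S100A10 lies left of 0 at -1.11 after DMSO and at -0.20 after the combination.

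Ordered by TPM over its 8 libraries, SK-LMS-1 held ANXA2 first (mean 2821 TPM, rank 43 among the 26663 genes above 0). SERPINB2 (468 TPM), SERPINB7 (447 TPM), PLAU (435 TPM), and S100A10 (356 TPM) followed, and their order differed between the groups. In DMSO set 2, SERPINB2 (491 to 628 TPM) and SERPINB7 (513 to 541 TPM) overlapped and SERPINB7 was above PLAU (415 to 473 TPM), while in DMSO set 4 PLAU (543 to 553 TPM) was above SERPINB7 (399 to 509 TPM). Over all 8 libraries, PLAT (178 TPM) and PLAUR (168 TPM) overlapped as well, as did SERPINF1 (57.3 TPM) and SERPINE2 (42.8 TPM). In SK-UT-1B, S100A10 came first (679 TPM, rank 145 of 23395 genes above 0), and ANXA2 stood at 99.9 TPM. The order of the next 3 differed between the groups, without overlap in either. After DMSO it was PLAUR (21.8 TPM), SERPINE2 (14 TPM), and SERPINF1 (9.46 TPM), and after the combination it was SERPINF1 (32.2 TPM), SERPINE2 (18.3 TPM), and PLAUR (14.4 TPM). PLAU (5.33 TPM) and PLAT (0.454 TPM) were below them, and the clade B serpins were at the end. After the combination, however, PLAT overlapped SERPINB7, at 0.0280 and 0.0390 TPM in library 3-1, with 1 count each.

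The lines were compared again after the combination, with means from other libraries than those of the first comparison and a spread estimated from all 12. The mixture was given at the IC30 of each line, with other doses in each, and its libraries are of set 4 in SK-LMS-1 and of set 3 in SK-UT-1B, so line, dose, and set cannot be told apart. PLAU was at 345 and 387 CPM in SK-LMS-1 and at 1.53 and 7.84 CPM in SK-UT-1B (log2FC 6.32, SE 0.70, edgeR adjusted p = 0.000407), with a log2FC of 5.52 without library 3-1 and 7.90 without 3-3 of SK-UT-1B. PLAT was at 238 and 289 CPM in SK-LMS-1 and at 0.0273 CPM, which is 1 count, and 0.674 CPM in SK-UT-1B (log2FC 9.68, SE 0.71, edgeR adjusted p = 1.42e-05), with 8.58 without 3-1 and 13.05 without 3-3. The log2FC of PLAUR was 3.86 (SE 0.22, edgeR adjusted p = 1.86e-11), that of ANXA2 was 5.27 (SE 0.20, edgeR adjusted p = 4.06e-14), and that of SERPINE2 was 1.72 (SE 0.26, edgeR adjusted p = 3.06e-05). For SERPINF1 the difference was 2.03-fold (log2FC 1.02, SE 0.30, edgeR adjusted p = 0.0122), just past the required fold. Its log2FC was 0.92 to 1.10 over the alternative settings. It missed the fold without the combination library 4-1 of SK-LMS-1 (0.95), without the combination library 3-1 of SK-UT-1B (0.92), and without the DMSO library 4-1 of SK-UT-1B (0.98), among others. S100A10 was at 103 and 107 CPM in SK-LMS-1 and at 78.0 and 163 CPM in SK-UT-1B, so the groups overlapped, and the log2FC was -0.20 (95% interval -0.80 to 0.40, edgeR adjusted p = 0.649).

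The next question was whether the combination changed these genes in SK-UT-1B. Only SERPINF1 was differentially expressed, 1 of the 9 genes, against 0.559% of all tested genes. It rose from 3.53 and 6.68 CPM after DMSO to 14.9 and 16.6 CPM after the combination, with no overlap, as for 16.7% of all tested genes in that direction. The fold was 3.07 (log2FC 1.62, 95% interval 0.97 to 2.27, edgeR adjusted p = 0.0146). Both combination libraries are of set 3 and both DMSO libraries of set 4, so set and treatment cannot be told apart. The call was lost without the DMSO library 4-1, where the log2FC was 1.20 and the edgeR adjusted p was 0.146, and with only the SK-UT-1B libraries in the model, where the adjusted p was 0.598.

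The remaining genes of SK-UT-1B did not pass the test. PLAUR was at 11.1 and 11.4 CPM after DMSO and at 6.56 and 6.85 CPM after the combination (log2FC -0.74, SE 0.20, edgeR adjusted p = 0.111). ANXA2 had a log2FC of -0.45 and S100A10 of -0.83, with edgeR adjusted p of 0.292 and 0.252. For PLAUR, ANXA2, and S100A10 the libraries did not overlap, which held in the lower direction for 15.4% of all tested genes. PLAU differed more between the combination libraries, at 1.53 CPM in 3-1 and 7.84 CPM in 3-3, than between the groups, and its log2FC was 0.05 (95% interval -1.45 to 1.55). PLAT had 29 and 14 counts after DMSO and 1 and 19 after the combination (log2FC -1.05, SE 0.87, edgeR adjusted p = 0.799). SERPINE2 was at 11.9 and 11.6 CPM and at 11.8 and 16.1 CPM (log2FC 0.24, SE 0.26). No fold was computed for SERPINB2 and SERPINB7, which were at the floor on both sides.

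The combination libraries 3-1 and 3-3 each moved several of these values. Without 3-3, PLAU had a log2FC of -1.53 (edgeR adjusted p = 0.00015), PLAT of -4.41 (adjusted p = 0.00283 from the same edgeR test), and S100A10 of -1.45 (edgeR adjusted p = 0.000183). In that fit 4 of the 9 genes were called, as were 812 of all 21114 tested genes in place of 118, and the single library left was assumed to vary like the other groups. Without library 3-1 instead, the log2FC was 0.80 for PLAU, 0.01 for PLAT, and -0.42 for S100A10. The 2 combination libraries of SK-UT-1B thus stood on opposite sides of DMSO for PLAU.

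In SK-LMS-1, MK-0752 alone was compared with DMSO set 2. No member passed the test, 0 of 9, while 0.251% of all tested genes did, and with DESeq2 the count was again 0. At an unadjusted p under 0.05, 1354 of the 21114 genes were found in this comparison. The estimates lay mostly on the lower side. The libraries did not overlap in the lower direction for 7 of the 9 genes (17.5% of all tested genes) and in the higher direction for 1 (16.9%). The median log2FC was -0.43 for the 9 genes and 0 for all tested genes.

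PLAUR was the member with the lowest estimate after MK-0752, at 63.4 and 75.4 CPM against 95.8 and 117 CPM after DMSO (log2FC -0.62, SE 0.19, unadjusted p = 0.00439 and adjusted p = 0.331 with edgeR). SERPINB2 was at 295 and 320 CPM against 476 and 386 CPM (log2FC -0.49, 95% interval -0.82 to -0.15, edgeR adjusted p = 0.407). SERPINB7 was at 363 and 324 CPM against 472 and 464 CPM (log2FC -0.45, SE 0.16, edgeR adjusted p = 0.496). None of these reached the required fold. ANXA2 was at 1524 and 1425 CPM against 1870 and 1990 CPM (log2FC -0.39, SE 0.17), and SERPINE2 was at 30.5 and 23.7 CPM against 38.3 and 40.2 CPM (log2FC -0.53, SE 0.26). PLAT had a log2FC of -0.43 (95% interval -1.45 to 0.59) and PLAU of -0.28 (95% interval -1.58 to 1.02). These intervals use the spread of each gene over all 12 libraries and do not measure the spread within SK-LMS-1 alone. That spread includes the SK-UT-1B combination libraries 3-1 and 3-3, at 1.53 and 7.84 CPM for PLAU and at 0.0273 and 0.674 CPM for PLAT. SERPINF1 stood on the other side, at 39.2 and 47.5 CPM against 33.1 and 30.5 CPM (log2FC 0.45, SE 0.30, edgeR adjusted p = 0.806). S100A10 overlapped, at 89.5 and 75.4 CPM against 73.3 and 92.1 CPM.

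The combination in SK-LMS-1 was compared with DMSO set 4. Again 0 of 9 genes passed the edgeR test, against 0.0237% of all tested genes, and 0 passed with DESeq2. Before adjustment, 914 of all tested genes had a p under 0.05. PLAU was at 345 and 387 CPM against 527 and 515 CPM after DMSO, the widest difference of the 9 genes (log2FC -0.51, 95% interval -1.81 to 0.79, edgeR adjusted p = 1). Its interval again uses the spread over all 12 libraries, those of SK-UT-1B among them, and not that of SK-LMS-1 alone. PLAU did not overlap between these groups. PLAU was 1 gene of 9 that did not overlap in the lower direction (11.4% of all tested genes), and SERPINF1 was the 1 that did not overlap in the higher direction, at 33.4 and 30.4 CPM against 26.7 and 26.8 CPM (21.0%). The log2FC of the other 7 lay between -0.18 (S100A10) and 0.19 (PLAT). For ANXA2 the interval was -0.39 to 0.31, and for SERPINB2 it was -0.18 to 0.50, so changes of 2-fold lay outside both.

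**Figure D4:**
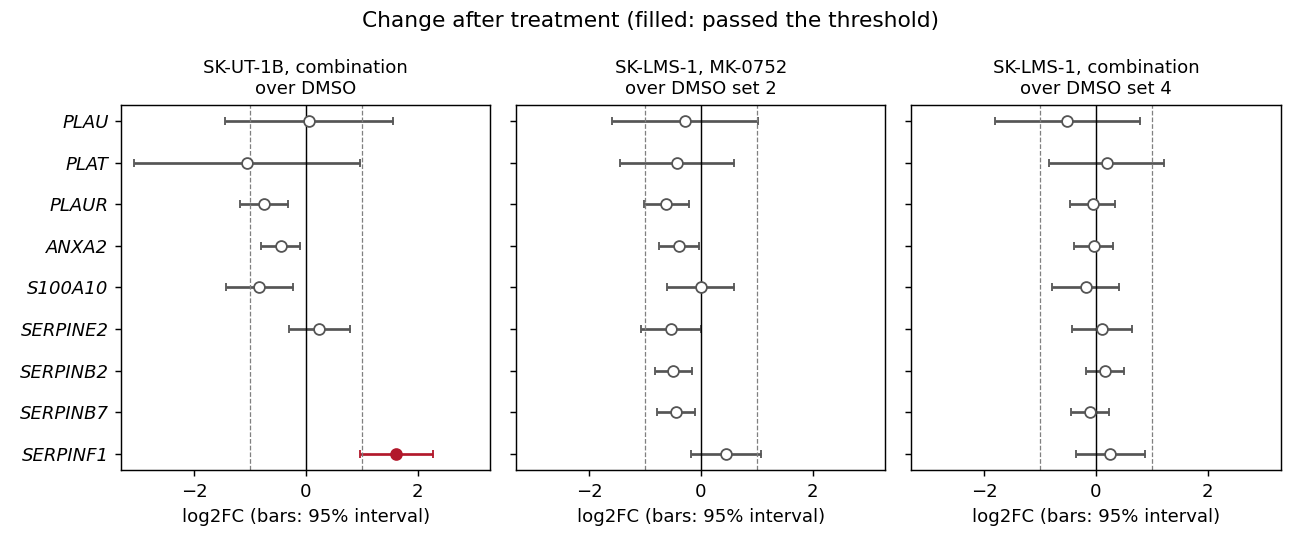
log2FC after each treatment, with 95% intervals derived from the edgeR test statistic, and dashed lines at the fold required. SERPINF1 in SK-UT-1B, the filled point, is the only value that passed the test. SERPINB2 and SERPINB7 are left out of the SK-UT-1B panel because they were at the floor.

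Differences between treatment effects were tested directly. Between the combination effects of the lines, 0 of the 7 genes with a value passed (0.232% of all tested genes), since SERPINB2 and SERPINB7 were at the floor in SK-UT-1B. Doses differed between the lines, and the SK-UT-1B effect was measured across sets, so these cannot be told apart from the line here. SERPINF1 had the highest value, a difference of 1.36 on the log2 scale, SK-UT-1B minus SK-LMS-1 (95% interval 0.47 to 2.25, edgeR adjusted p = 0.427). Its value was 1.90 without the DMSO library 4-2 of SK-UT-1B. Without combination library 3-3, the values of PLAU (-1.02), PLAT (-4.59), and S100A10 (-1.27) passed, and without 3-1 that of PLAU passed at 1.34, with the opposite sign. Of all tested genes, 498 were called without 3-3 and 114 without 3-1, in place of 49. Between the effects of MK-0752 and of the combination in SK-LMS-1, which differ in MK-0752 dose as well, 0 of 9 passed (0.0379% of all tested genes), with SERPINB2 at -0.65 (SE 0.23, edgeR adjusted p = 0.911). The DMSO sets of SK-LMS-1 differed in 0 of 9 members and in 0% of all tested genes with edgeR, while 1197 genes had an unadjusted p under 0.05 and DESeq2 called 30. S100A10 was at 73.3 and 92.1 CPM in set 2 and at 139 and 98.2 CPM in set 4.

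Other genes of the pathway were read from lists. Of 9 activators and binding proteins, 4 passed the filter. PLG, the gene of plasminogen itself, had 0 counts in all 12 libraries. ENO1, a glycolytic enzyme that also binds plasminogen at the cell surface, was the highest of them at 1763 TPM over SK-LMS-1, with 1324 to 1661 CPM there and 928 and 826 CPM in SK-UT-1B after DMSO (log2FC 0.70, SE 0.24), under the required fold. After the combination its log2FC was 1.01 (SE 0.27, edgeR adjusted p = 0.0156), which passed, but with each library left out in turn it was 0.55 to 1.64 and the call was lost in 4 of 12 fits, 0.55 being the value without the combination library 3-1 of SK-UT-1B. PLGRKT, a membrane plasminogen receptor, was lower in SK-LMS-1 after DMSO (log2FC -1.03, SE 0.30, edgeR adjusted p = 0.00823), a call lost in 3 of the 12 fits, at -0.92 to -0.97. F12, coagulation factor XII, was lower as well, at 0.978 to 3.50 CPM against 11.1 and 4.83 CPM (log2FC -1.93, SE 0.72, edgeR adjusted p = 0.039). That call was lost in 5 of the 12 fits, and without the SK-UT-1B DMSO library 4-1 the log2FC was -1.27. After the combination neither PLGRKT (log2FC 0.18, SE 0.35, edgeR adjusted p = 0.758) nor F12 (log2FC -1.43, SE 0.89, edgeR adjusted p = 0.248) was called between the lines.

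Of 9 further inhibitors, 6 were tested, and 2 were higher and 1 was lower in SK-LMS-1 after DMSO, against 17% and 14.1% of all tested genes. TFPI2, a secreted Kunitz inhibitor of plasmin, was at 1116 to 1412 CPM in DMSO libraries of SK-LMS-1 and at 17.9 and 24.0 CPM in those of SK-UT-1B (log2FC 5.85, SE 0.21, edgeR adjusted p = 1.22e-14). It fell to 188 and 157 CPM after MK-0752, 7.42-fold lower than DMSO set 2 (log2FC -2.89, SE 0.18, edgeR adjusted p = 3.13e-08). After the combination TFPI2 was at 607 and 677 CPM, against 1116 and 1172 CPM in DMSO set 4. This difference was not called (log2FC -0.83, SE 0.17, edgeR adjusted p = 0.229). The log2FC after MK-0752 was lower than that after the combination (difference -2.06, SE 0.25, edgeR adjusted p = 0.000545). MK-0752 was at the higher dose when given alone, so dose and added drugs cannot be told apart here. No member of the 9 showed a change of this size after MK-0752. SERPING1, the C1 inhibitor, which also acts on plasma kallikrein and factor XII, was at 94.3 to 132 CPM in SK-LMS-1 and 3.53 and 0.477 CPM in SK-UT-1B after DMSO (log2FC 5.88, SE 1.26, edgeR adjusted p = 0.00934). Its size depended on the SK-UT-1B library, at 7.83 without DMSO library 4-1 and 5.01 without 4-2. SPINT1, an inhibitor of hepatocyte growth factor activator, was at 0.401 to 1.84 CPM in SK-LMS-1 and at 21.6 and 26.4 CPM in SK-UT-1B after DMSO (log2FC -4.53, SE 0.57, edgeR adjusted p = 2.74e-06). After MK-0752 it had 0 counts in both libraries, against 14 and 37 in DMSO set 2, lower by a factor of at least 10.5 (edgeR adjusted p = 0.0148). The bound depended on DMSO library 2-3, at 1.34 CPM against 0.401 CPM in 2-1, and would be smaller on 2-1 alone. The call was lost without DMSO library 2-3 or without 1 or the other MK-0752 library. SERPINI1, neuroserpin, an inhibitor of tissue plasminogen activator, had 81 and 83 counts in SK-LMS-1 after the combination and 0 in SK-UT-1B, at least 30.9-fold higher (edgeR adjusted p = 0.00648). After DMSO it had 38 to 84 counts in SK-LMS-1 and 0 and 7 in SK-UT-1B and was not called (log2FC 4.32, SE 1.80, edgeR adjusted p = 0.0641).

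Among 7 genes of clearance and of receptor partners, 6 were tested, and 3 were higher and 1 was lower in SK-LMS-1 after DMSO, against the same 17% and 14.1%. LRP1 and MRC2 had the most transcript per length, at 173 and 175 TPM over SK-LMS-1. LRP1, the endocytic receptor that takes up complexes of activators and serpins, was at 886 to 922 CPM against 146 and 130 CPM (log2FC 2.72, SE 0.15). MRC2, a collagen receptor that binds the urokinase receptor complex, had a log2FC of 3.59 (SE 0.17), and IGF2R, which binds PLAUR and plasminogen, had one of 3.02 (SE 0.16). SORL1, a sorting receptor, was lower (log2FC -2.59, SE 0.75, edgeR adjusted p = 0.0088), with -3.25 without the SK-LMS-1 DMSO library 4-1 and no call without the SK-UT-1B DMSO library 4-1 (edgeR adjusted p = 0.0679). The first 3 were also higher after the combination (15.6% of all tested genes). For the combination in SK-UT-1B, 0 of the 6 were called, against 0.559% of all tested genes. In SK-LMS-1 it was 0 of 6 after each treatment, against 0.251% after MK-0752 and 0.0237% after the combination. LRP1 had a log2FC of 0.66 in SK-UT-1B after the combination (edgeR adjusted p = 0.0454), under the required fold. Of 11 other clade B serpins, 6 were tested, and 4 were higher in SK-LMS-1 after DMSO (17% of all tested genes). SERPINB8 was at 56.8 to 75.3 CPM against 0.138 and 0.769 CPM (log2FC 7.10, SE 0.55, edgeR adjusted p = 3.66e-07), with 6.37 without the SK-UT-1B DMSO library 4-1 and 8.87 without 4-2. SERPINB10 had 213 to 499 counts against 0 in SK-UT-1B, at least 114-fold higher, and SERPINB3 had 23 to 81 counts against 0, at least 18.2-fold higher, though SERPINB3 was not called without 1 or the other SK-UT-1B DMSO library (edgeR adjusted p = 0.0542 and 0.0616). SERPINB1, an inhibitor of neutrophil elastase, was 4.18-fold higher (log2FC 2.06, SE 0.24), and SERPINB6, the highest of these serpins at 249 TPM over SK-LMS-1, was at 129 to 142 CPM in SK-LMS-1 and at 64.4 and 71.0 CPM in SK-UT-1B. After the combination, all 6 tested were higher in SK-LMS-1 (15.6% of all tested genes), among them SERPINB6 (log2FC 1.10, SE 0.19) and SERPINB4, with 98 and 36 counts against 0 (at least 23.5-fold). SERPINB6 missed the fold without the combination library 4-1 of SK-LMS-1 (0.95) or 3-3 of SK-UT-1B (0.83), and SERPINB3 was not called without 1 or the other SK-UT-1B combination library. SERPINB3 and SERPINB4 are near-identical copies, so their counts are uncertain. SERPINB5 had 0 counts in every library.

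For 3 members, the genes with the most similar pattern were sought among 12211 genes, as Pearson's r of log2 CPM over the 12 libraries after the mean of each line was subtracted. The libraries share their depth and treatment, and the values are descriptions. PLAU was most similar to PODXL (r = 0.985), MICA (0.958), and ARPC1A (0.935), with r of 0.905, 0.817, and 0.742 in the 8 SK-LMS-1 libraries alone. PLAT was most similar to NUP62 (0.981), LINGO1 (0.965), and EFCAB1 (0.964), but within SK-LMS-1 the r was 0.851 for NUP62 and -0.19 for both LINGO1 and EFCAB1. SERPINE2 was most similar to CCND1 (0.935), TCTN3 (0.893), and FCHSD1 (0.878), with 0.948, 0.889, and 0.879 within SK-LMS-1.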

How the data were processed

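The authors prepared stranded libraries from RNA depleted of ribosomal RNA, sequenced single-end reads of 75 bases, trimmed them with Trim Galore (0.3.7), aligned them to hg38 with STAR (2.7.9a), removed ribosomal RNA with SortMeRNA, and deposited the raw count of each gene in each library, without normalization. The submitters' processing notes also name DESeq2 (1.42.0). The annotation, the strand setting, and any removal of duplicate reads are not given in the sources used here, so PCR copies may be counted, and intervals from counts cover counting error only. Of the 60649 identifiers, 60507 were in GENCODE v44, which gave coordinates and transcript lengths. Promoter windows came from RefSeq (GRCh38.p14).

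The 12 libraries formed 6 groups of 2 by line and treatment, with the SK-LMS-1 DMSO libraries divided by set. Raw counts were tested with edgeR 4.0.16 in R 4.3.3 (TMM, filterByExpr, robust quasi-likelihood fit over all 12 libraries). edgeR's test gives no SE. The SE was derived as the absolute log2FC divided by the square root of the F statistic, and the intervals from this SE and a t distribution. Both are approximate, most of all at low counts. On simulated data with 200 of 19490 genes changed by a log2FC of 2 in SK-UT-1B after the combination, edgeR recovered 82.5%, with 13 further calls, and DESeq2 1.42.0 recovered 90.5%, with 71. Genes at 0 counts in a group were compared with a floor of 3 counts per library. The members and lists were chosen with earlier results of these data known. All 9 members were named, as were list genes that were called or highest in their list, and the 3 genes most similar to PLAU, PLAT, and SERPINE2 among genes with a mean of at least 100 counts. The lists were 9 activators and binding proteins, 9 inhibitors, 7 clearance and partner genes, 11 clade B serpins, 3 ANXA2 copies, and markers of smooth muscle (9), epithelium (6), leukocytes (5), and endothelium (5). Alternatives were DESeq2, its size factors in edgeR, a filter of 1 count in all, a filter at a mean of 50 counts, models without the libraries outside a comparison, the 4 DMSO libraries of SK-LMS-1 together as control, a block for the replicate number, and each library left out in turn, with the tested genes kept. Leaving out libraries for list genes other than the members was chosen after seeing the data.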

Additional observations from a re-analysis of the deposited data

Results flagged for a closer look

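Among the 4 SK-LMS-1 DMSO libraries, SERPINB7 stood apart in library 4-1, at 356 CPM, while the others lay between 452 and 472 CPM. About 1 in 20 groups of this size shows such a gap by chance. All 9 genes were looked at in this way and only SERPINB7 was flagged, so 1 such gap is not unusual. The effect of the combination on TFPI2 differed between the lines, by 1.21 on the log2 scale, SK-UT-1B minus SK-LMS-1 (SE 0.25, edgeR adjusted p = 0.0456). That call was lost in 10 of the 12 fits with 1 library left out (0.97 to 1.44, edgeR adjusted p from 0.00213 to 0.368). The lines received different doses of each drug, and the SK-UT-1B effect set libraries of set 3 against set 4, so dose, set, and line cannot be told apart. Within SK-LMS-1, TFPI2 responded differently to MK-0752 alone and to the combination, where MK-0752 was at a lower dose, with a difference of -2.06 on the log2 scale (SE 0.25, edgeR adjusted p = 0.000545).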

How the results depend on the processing

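With 2 libraries in a group, precision was limited, and the calls of the treatment comparisons depended on the model. Over the alternatives other than leaving out a library, 365 of 376 single-gene values kept their direction and their side of the thresholds. The number of differentially expressed genes moved as follows, and the cause was not tested. In SK-UT-1B after the combination, 118 genes became 369 with DESeq2, 420 with no filter beyond 1 count, and 0 with only the libraries of the comparison, where the members called went from 1 to 0. After MK-0752, 53 became 131 with DESeq2, 175 with no filter, 35 with a mean of at least 50 counts, and 99 with only the libraries of the comparison. After the combination in SK-LMS-1, 5 became 30, 73, 1, and 0 in the same order. The difference between the lines in the effect of the combination went from 49 to 143, 303, 24, and 20, and that between the treatments of SK-LMS-1 from 8 to 41, 89, 3, and 27. The DMSO sets went from 0 to 30 with DESeq2 and 76 with no filter. Values near 0 reversed after MK-0752 for S100A10 (0.01 with no filter, 0.02 with a mean of at least 50 counts, and 0.01 with only the libraries of the comparison). After the combination in SK-LMS-1, SERPINB2 (-0.02) and S100A10 (0.08) reversed with all 4 DMSO libraries as the control, and between the DMSO sets ANXA2 (0.01) reversed with a mean of at least 50 counts. SERPINF1 missed the fold between the lines after the combination at 0.98 with DESeq2, its size factors, or no filter, and 0.97 with a mean of at least 50 counts.

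Over the 4 pairs of groups that share 2 numbers, the correlation of the deviations of same-numbered libraries was -0.02 to 0.04. With a replicate block, 2 genes were called after the combination in SK-LMS-1, in place of 5, and no call of a member changed there or between the lines after DMSO.

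With each library left out in turn, 8 to 9 members were called between the lines after DMSO (5697 to 6559 of all genes) and 7 to 8 after the combination (4456 to 5588). The range was 0 to 4 members (79 to 812 genes) in SK-UT-1B after the combination, 0 members (14 to 95 genes) after MK-0752, and 0 members (0 to 29 genes) after the combination in SK-LMS-1. It was 0 to 3 members (21 to 498 genes) for the difference between the lines, 0 members (3 to 22 genes) for that between the treatments, and 0 members (0 to 39 genes) between the DMSO sets. The highest counts, 812 and 498, were those without SK-UT-1B combination library 3-3. The lowest and highest log2FC of S100A10 between the lines after the combination were -0.66 and 0.43. For the combination in SK-UT-1B, the range over the libraries left out was -1.53 to 0.80 for PLAU, -4.41 to 0.01 for PLAT, and 0 to 0.42 for SERPINE2. Further values that crossed 0 ranged from -0.16 to 0.17 for S100A10 after MK-0752. After the combination in SK-LMS-1, they ranged from -0.17 to 0.06 for PLAUR, -0.01 to 0.22 for SERPINE2, -0.26 to 0.09 for SERPINB7, -0.09 to 0.01 for ANXA2, and -0.41 to 0.10 for S100A10. For the difference between the lines they ranged from -1.02 to 1.34 for PLAU and -0.11 to 0.34 for SERPINE2, and for that between the treatments from -0.10 to 0.40 for S100A10. Between the DMSO sets they ranged from -0.21 to 0.08 for PLAUR, -0.02 to 0.11 for PLAT, and -0.08 to 0.01 for ANXA2.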
